A study of Homo sapiens with 4 samples.

Results

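The glycolysis and hypoxia response genes are the enzymes, transporters and signalling genes through which cells take up and break down glucose and answer a shortage of oxygen. The set was given as 34 gene symbols, listed by name, so no measured value entered the choice of probes, although earlier results of these data were known when the list was made. All probes whose symbol in the platform annotation was a member were taken, which gave 63 of the 47318 probes and 33 of the 34 genes. CA9, which encodes carbonic anhydrase IX, matched no probe in the annotation used here so its RNA level was not analysed. The genes were read on Illumina bead arrays in U87, a long-established cell line from a human glioblastoma. The cells were transfected with a synthetic mimic of piR-598 in one group and with NC oligo in the other, at a final 25 nM with RNAiMax, a lipid reagent. NC oligo is a purchased control whose product name marks it as meant for inhibitor experiments, while the piR-598 oligo is a mimic. piR-598 is a PIWI-interacting RNA, a class of short RNAs whose familiar role is to keep transposons silent in germ cells. Total RNA was isolated at 24 h, and each group had 2 arrays, which the series calls biological duplicates. All 4 arrays therefore came from transfected cells. The labels name no low-oxygen treatment and no oxygen level, so the values describe U87 cells in their stated culture medium.

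In well-oxygenated cells, prolyl hydroxylases mark the alpha subunits of hypoxia-inducible factor (HIF) for recognition by VHL and for degradation. When oxygen falls, HIF builds up and binds a short DNA motif, the hypoxia response element, near genes for glucose uptake, glycolysis, angiogenesis and mitophagy. Tumour cells often run glycolysis at a high rate even with oxygen present, and glioblastoma is known for hypoxic regions. The comparison asks whether the RNA levels of these genes differ between cells given the mimic and cells given the NC oligo.

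The arrays had mean deposited signals of 273.0 and 284.8 with the mimic and 305.8 and 300.0 with the NC oligo, in arbitrary intensity units, so levels were compared after normalization. Precision is limited by there being only 4 arrays. The labelled cell type was checked against 9 markers, of which 6 were detected: VIM, CD44, NES, CHI3L1, FN1 and OLIG2. GFAP, S100B and SOX2 were detected on 0 arrays. Of 10 markers of other cell types, 3 had a detected probe (AIF1, ALB and EPCAM), and PTPRC, VWF, KRT5, MBP, RBFOX3 and SYT1 were detected on 0 arrays. PECAM1 was detected on 1 array. Detection does not give a level. OLIG2 had signals of 112.8 and 114.2 with the mimic and 125 and 125.4 with the NC oligo. The probe of AIF1 that was detected throughout had 111.1 and 108.1 with the mimic and 117.4 and 122.3 with the NC oligo. FN1 was also dim at its detected probes, while VIM was bright.

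The promoters of many, though not all, of these genes hold a match to the motif that HIF binds. The core of the hypoxia response element is ACGTG, or in a looser form GCGTG, on either strand. It was searched in promoter windows of 300 bases, from 250 before to 50 after each annotated start (RefSeq, GRCh38.p14). Windows were found for 30 of the 34 members, CA9 among them, 55 windows in all because some genes have several starts. None was found for VEGFA, BNIP3L, NDRG1 and SLC2A3. ACGTG was present in 25 of the 55 windows, or 45.5%, against 21.4% of all 35116 windows. Either form was present in 67.3% of member windows and 48.4% of all windows. A palindromic CACGTG counts as a match on both strands. Counted per gene, 20 of the 30 members had ACGTG in at least 1 window, or 66.7%, against 24.9% of 27305 genes. A gene with more windows has more chances to match. Members had 55 windows for 30 genes and all genes 35116 for 27305, so the share per gene favours the members. The members were listed as glycolysis and hypoxia response genes, and the windows were not matched for base composition, so the shares are a description. A match describes the letters and is not evidence of binding, and the arrays measured RNA, not promoters.

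The windows of 5 members are shown because the probes with the smallest p-values, and the probe of the mitophagy receptor BNIP3, belong to these genes. For genes with several starts, the start with the most matches is given. The LDHA window (chr11:18394313-18394612, plus strand) held 6 matches, the HK2 window (chr2:74834920-74835219, plus strand) 6 and the BNIP3 window (chr10:131981874-131982173, minus strand) 6. The PFKFB3 window (chr10:6202682-6202981, plus strand) held 2 and the P4HA2 window (chr5:132227042-132227341, minus strand) 0. Each is written 5′ to 3′ on the strand of the gene, with every match to either form, on either strand, in capitals.
LDHA: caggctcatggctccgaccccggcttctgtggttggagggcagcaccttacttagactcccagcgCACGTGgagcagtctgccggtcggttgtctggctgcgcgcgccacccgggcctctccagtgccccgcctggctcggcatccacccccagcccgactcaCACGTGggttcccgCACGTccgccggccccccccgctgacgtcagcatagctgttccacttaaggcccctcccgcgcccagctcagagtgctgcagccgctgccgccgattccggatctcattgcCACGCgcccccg
HK2: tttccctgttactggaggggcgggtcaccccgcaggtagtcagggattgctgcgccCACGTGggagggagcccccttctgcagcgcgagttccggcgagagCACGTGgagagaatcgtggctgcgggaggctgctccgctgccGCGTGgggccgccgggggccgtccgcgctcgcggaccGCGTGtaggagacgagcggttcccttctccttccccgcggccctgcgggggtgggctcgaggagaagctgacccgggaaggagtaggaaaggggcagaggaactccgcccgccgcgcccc
BNIP3: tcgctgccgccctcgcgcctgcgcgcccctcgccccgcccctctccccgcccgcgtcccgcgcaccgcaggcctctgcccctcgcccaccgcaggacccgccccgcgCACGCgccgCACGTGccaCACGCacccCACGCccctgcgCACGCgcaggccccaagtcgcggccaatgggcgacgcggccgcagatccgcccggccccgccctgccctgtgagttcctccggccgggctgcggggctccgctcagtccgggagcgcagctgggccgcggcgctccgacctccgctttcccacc
PFKFB3: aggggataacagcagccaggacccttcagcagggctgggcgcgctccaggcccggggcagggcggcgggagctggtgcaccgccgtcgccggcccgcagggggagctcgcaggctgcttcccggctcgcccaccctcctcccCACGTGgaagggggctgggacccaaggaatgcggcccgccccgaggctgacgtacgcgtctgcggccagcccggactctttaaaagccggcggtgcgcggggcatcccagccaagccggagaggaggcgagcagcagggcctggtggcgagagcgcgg
P4HA2: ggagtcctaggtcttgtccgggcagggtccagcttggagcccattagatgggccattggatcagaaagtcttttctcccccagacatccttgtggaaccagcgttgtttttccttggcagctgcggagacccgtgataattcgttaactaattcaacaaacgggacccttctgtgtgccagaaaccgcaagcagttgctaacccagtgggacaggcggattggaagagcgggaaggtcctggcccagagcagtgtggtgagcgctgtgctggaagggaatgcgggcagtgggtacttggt

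The pathway was broadly detected in U87 cells. Each of the 33 members had at least 1 probe with a detection p under 0.05 on 2 or more of the 4 arrays. At the level of probes, 52 of 63 (82.5%) met that rule, against 42.7% of all probes, and 50 of the 52 were detected on all 4 arrays. The detection p compares a probe with the negative controls of its array. Weakest among the members were PDK1, the kinase that turns off pyruvate dehydrogenase, and EGLN3, a HIF prolyl hydroxylase. The PDK1 signal was 95.1 and 98.6 with the mimic and 104 and 106 with the NC oligo. Its detection p was 0.074 and 0.0571 with the mimic and 0.0247 and 0.0182 with the NC oligo, so it was detected on both NC oligo arrays and on neither mimic array. EGLN3 had signals of 97.7 and 92.1 with the mimic and 103 and 102 with the NC oligo, and it was detected on 1 of 2 arrays in each group.

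**Figure D1:**
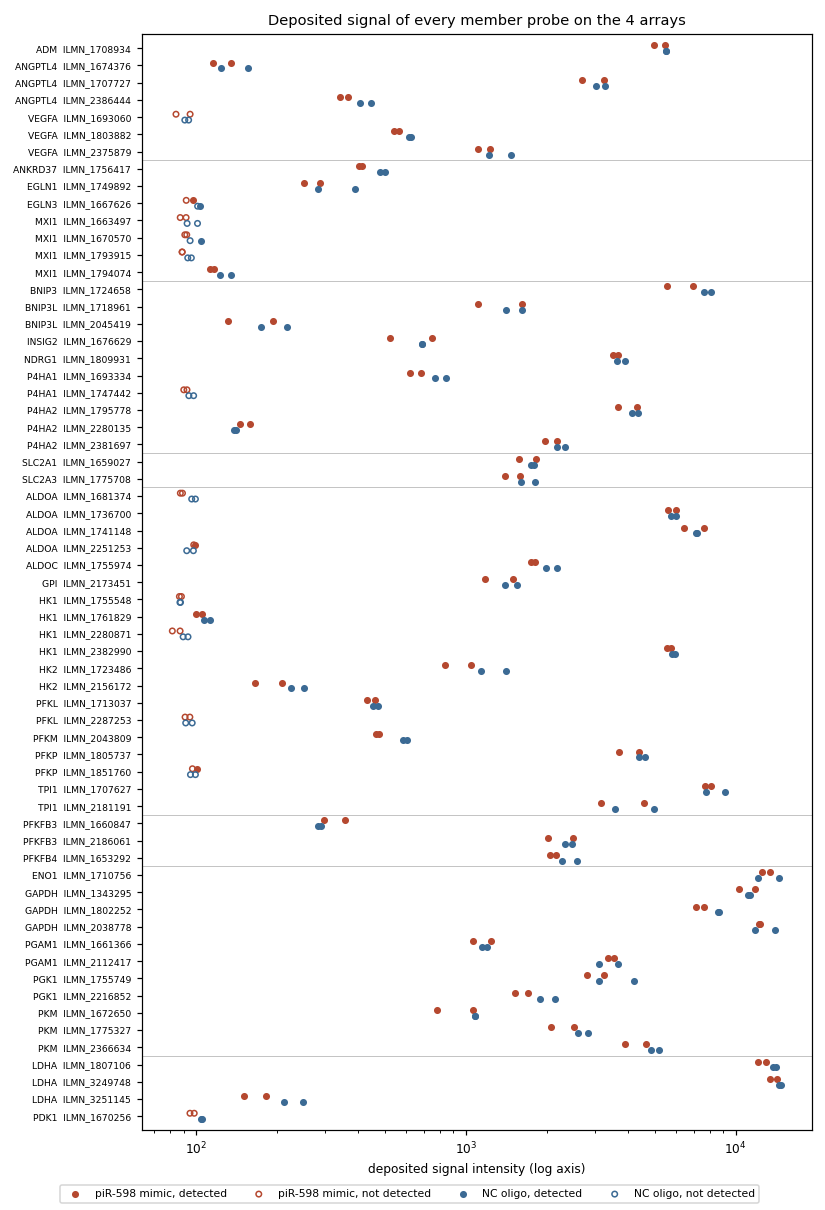
Deposited signal intensity (log axis) of all 63 member probes, 1 row per gene and probe and 1 point per array, with piR-598 mimic arrays drawn above NC oligo arrays. Filled points have a detection p under 0.05. Most genes have at least 1 probe far above the undetected probes near a signal of 100, while other probes of the same gene lie at background.

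No member passed the test between the groups. Of the 52 tested member probes, 0 were called at an adjusted p under 0.05 (limma, Benjamini-Hochberg over all 20188 tested probes), with 0 higher and 0 lower. Over all tested probes the same count was 0, or 0%. At an unadjusted p under 0.05 there were 3 member probes, 2 higher and 1 lower with the mimic. That is 5.77% of the member probes, close to the 5.46% of all tested probes (2.62% higher and 2.84% lower). These 3 were a dim probe of LDHA, a dim probe of P4HA2 and the dimmer probe of PFKFB3. Their number moved with single arrays, and so did the share over all tested probes. Leaving out the first or second mimic array gave 4 or 5 member probes, beside 7.15% or 11.3% of all tested probes. Leaving out the first or second NC oligo array gave 0 or 2, beside 2.33% or 3.26%.

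The median log2 fold change, piR-598 mimic minus NC oligo, was -0.04 over the 52 member probes and 6.7e-04 over all tested probes. Signs were mixed, with 20 positive and 32 negative values, where 49.9% of all tested probes were negative. Taking the brightest tested probe of each gene, 13 of the 33 genes were positive and 20 negative. The 2 mimic arrays lay outside the range of the NC oligo arrays for 15 member probes (28.8%), 6 above and 9 below, against 34.7% of all tested probes (17.1% above and 17.6% below). For the remaining 37 the groups overlapped. Log2 fold changes of single member probes ran from -0.59 to 0.48. None of the 52 intervals (95%) reached a 2-fold change, and 43 stayed short of 1.5-fold. Both counts include probes near background, such as those of PDK1 and EGLN3, and probes near the top of the signal range. An interval of such a probe is not read as a bound on the change in RNA. In bulk RNA, fewer expressing cells and less RNA per cell cannot be told apart. Separate cultures are not mentioned in the labels. The spread behind each p-value and interval pools a probe's own spread with that of all tested probes. It can therefore differ from the SDs given below for single probes. All of it comes from these samples alone, and may be technical.

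**Figure D2:**
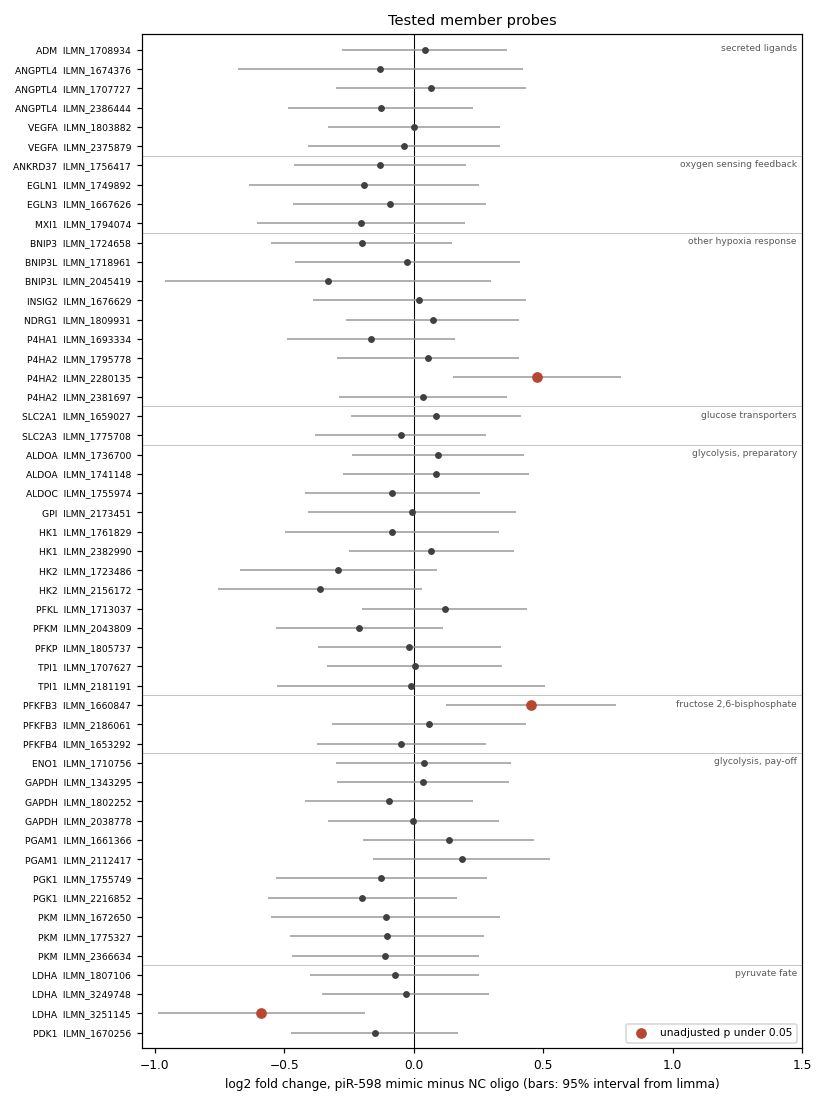
Log2 fold change, piR-598 mimic minus NC oligo, of the 52 tested member probes, grouped by role. Points are limma estimates and bars their 95% intervals. Intervals include 0 for all but the 3 coloured probes of P4HA2, PFKFB3 and LDHA, none of which passed adjustment over all probes.

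The secreted ligands were detected and had log2 fold changes on both sides of 0, all with overlapping groups. VEGFA encodes the main angiogenic growth factor of hypoxic tissue. Its probe ILMN_2375879 had signals of 1226 and 1105 with the mimic and 1472 and 1216 with the NC oligo, and ILMN_1803882 had 566 and 543 with the mimic and 626 and 614 with the NC oligo. After normalization the groups overlapped at both probes, with log2 fold changes of -0.04 ± 0.16 (SE) and 0.0016 ± 0.15 (SE). The third VEGFA probe, ILMN_1693060, was at background with 84.4 and 95.2 with the mimic and 91 and 94 with the NC oligo, and was detected on 0 arrays. ADM, which encodes the vasodilator peptide adrenomedullin, had normalized log2 signals of 12.37 and 12.42 with the mimic and 12.34 and 12.37 with the NC oligo. Its log2 fold change was 0.04 ± 0.14 (SE) and the groups overlapped.

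ANGPTL4, a secreted inhibitor of lipoprotein lipase, was read by 3 detected probes that did not share a sign. Probe ILMN_1707727 had signals of 3254 and 2704 with the mimic and 3290.4 and 3036 with the NC oligo and a log2 fold change of 0.07 ± 0.16 (SE). Probe ILMN_2386444 had signals of 365 and 342 with the mimic and 445 and 405 with the NC oligo and -0.13 ± 0.16 (SE). The dimmest probe, ILMN_1674376, had 115 and 135 with the mimic and 156 and 124 with the NC oligo, with a log2 fold change of -0.13 ± 0.24 (SE). The groups overlapped at each of the 3 after normalization.

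The oxygen sensors and feedback genes had 4 tested probes, all with negative values and none called (limma adjusted p from 0.951 to 0.984). EGLN1 is the principal hydroxylase that marks HIF for degradation. Its log2 signals were 7.65 and 7.75 with the mimic and 8.17 and 7.61 with the NC oligo, with NC oligo array 1 above the other arrays and a log2 fold change of -0.19 ± 0.20 (SE). EGLN3 had -0.09 ± 0.16 (SE). ANKRD37, a small ankyrin repeat protein known as a HIF target, had log2 signals of 8.56 and 8.38 with the mimic and 8.62 and 8.58 with the NC oligo and a log2 fold change of -0.13 ± 0.15 (SE). Both of its mimic arrays lay just below the NC oligo arrays. The shared sign rested in part on single arrays. EGLN1 was at 0.09 without NC oligo array 1, and EGLN3 at 0.08 without mimic array 2. ANKRD37 and MXI1 stayed negative whichever array was left out.

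MXI1, an antagonist of MYC, has 4 probes on this array and 1 of them was detected throughout. That probe, ILMN_1794074, had signals of 116 and 113 with the mimic and 135 and 123 with the NC oligo and a log2 fold change of -0.20 ± 0.18 (SE), with overlapping groups. The other 3 stayed at background: ILMN_1663497 had 92 and 87.5 with the mimic and 101 and 92.8 with the NC oligo. ILMN_1670570 had 91 and 92.5 with the mimic and 95.2 and 104 with the NC oligo, and ILMN_1793915 had 89 and 88.9 with the mimic and 96.2 and 93.3 with the NC oligo. Of these 3, only ILMN_1670570 was detected on any array, on NC oligo array 2.

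Among the other hypoxia response genes, those for mitochondrial turnover and collagen modification were spread around 0. BNIP3 and BNIP3L encode receptors that mark mitochondria for mitophagy. BNIP3 had log2 signals of 12.52 and 12.79 with the mimic and 12.86 and 12.85 with the NC oligo, and its log2 fold change was -0.20 ± 0.15 (SE; 95% interval -0.55 to 0.15). The 2 mimic arrays lay below both NC oligo arrays, mainly through mimic array 1, and without piR-598 mimic replicate 1 the log2 fold change was -0.07. BNIP3L had -0.03 ± 0.19 (SE) at ILMN_1718961 and -0.33 ± 0.28 (SE) at the dimmer ILMN_2045419, both with overlapping groups. NDRG1, a stress-responsive protein often used as a hypoxia marker, had 0.07 ± 0.15 (SE). INSIG2, which restrains sterol synthesis from the endoplasmic reticulum, had 0.02 ± 0.18 (SE).

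P4HA1 and P4HA2 encode catalytic subunits of the prolyl hydroxylases that act on collagen. The detected P4HA1 probe had signals of 620.4 and 682 with the mimic and 846 and 769 with the NC oligo, lower on both mimic arrays after normalization too, with a log2 fold change of -0.17 ± 0.14 (SE). A second P4HA1 probe, ILMN_1747442, had 90.2 and 92.7 with the mimic and 94.2 and 98.1 with the NC oligo and was detected on 0 arrays. All 3 probes of P4HA2 were detected. The dim probe ILMN_2280135 had log2 signals of 6.30 and 6.39 with the mimic and 5.83 and 5.91 with the NC oligo, with both mimic arrays above both NC oligo arrays. Its mean was 6.35 ± 0.06 with the mimic and 5.87 ± 0.05 (SD, n = 2 each) in NC oligo cells. The log2 fold change was 0.48 ± 0.14 (SE; 95% interval 0.15 to 0.80) (unadjusted p = 0.00888, limma adjusted p = 0.895). The brighter probes ILMN_1795778 and ILMN_2381697 had 0.05 ± 0.16 (SE) and 0.04 ± 0.14 (SE). The value of the dim probe was 0.23 without background correction and 0.24 on the authors' scaled signals.

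The glucose transporters SLC2A1 (GLUT1) and SLC2A3 (GLUT3) had 1 probe each, and both were detected on all arrays. SLC2A1 had signals of 1570.4 and 1818 with the mimic and 1746 and 1787 with the NC oligo, and normalized log2 signals of 10.67 and 10.80 with the mimic and 10.62 and 10.68 with the NC oligo. Its log2 fold change was 0.09 ± 0.14 (SE) and mimic array 1 lay within the NC oligo range. SLC2A3 had -0.05 ± 0.14 (SE), also with overlapping groups.

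Hexokinases trap glucose in the cell, and HK2 is the inducible form that HIF raises. Both HK2 probes were lower on the 2 mimic arrays than on either NC oligo array, without passing the test. Probe ILMN_1723486 had signals of 834 and 1041 with the mimic and 1411 and 1142 with the NC oligo, and ILMN_2156172 had 166 and 208 with the mimic and 251 and 225 with the NC oligo. In normalized log2 signal these were 9.72 and 9.97 with the mimic and 10.29 and 9.99 with the NC oligo for the first probe. For the second they were 6.69 and 7.06 with the mimic and 7.34 and 7.13 with the NC oligo. On both probes NC oligo array 1 was highest, mimic array 1 was lowest, and mimic array 2 lay just under NC oligo array 2. The log2 fold changes were -0.29 ± 0.17 (SE; 95% interval -0.67 to 0.09), and -0.36 ± 0.17 (SE; 95% interval -0.76 to 0.03) (limma adjusted p = 0.913 and 0.899). They were -0.17 and -0.18 without piR-598 mimic replicate 1 and -0.14 and -0.26 without NC oligo replicate 1.

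HK1, the constitutive hexokinase, was read mainly by ILMN_2382990, with signals of 5553 and 5733 with the mimic and 5951 and 5782 with the NC oligo. Its log2 fold change was 0.07 ± 0.14 (SE), and the mimic arrays lay above the NC oligo arrays after normalization. ILMN_1761829 was near background with 105 and 100 with the mimic and 108 and 113 with the NC oligo, was detected on 4 of 4 arrays and had -0.08 ± 0.18 (SE). The remaining HK1 probes were detected on 0 arrays, ILMN_1755548 with 88.4 and 86.9 with the mimic and 87.7 and 87.3 with the NC oligo. ILMN_2280871 had 81.8 and 87.4 with the mimic and 89.7 and 93.5 with the NC oligo. GPI, the isomerase that follows hexokinase, had a log2 fold change of -0.006 ± 0.18 (SE).

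Phosphofructokinase, which commits glucose to glycolysis, has muscle, liver and platelet isoforms, and all 3 were detected. PFKM had log2 signals of 8.77 and 8.67 with the mimic and 8.94 and 8.92 with the NC oligo, lower on both mimic arrays, with a log2 fold change of -0.21 ± 0.14 (SE; 95% interval -0.53 to 0.11). PFKL had 8.63 and 8.62 with the mimic and 8.53 and 8.48 with the NC oligo at ILMN_1713037, higher on both mimic arrays, with 0.12 ± 0.14 (SE; 95% interval -0.20 to 0.44). Under median scaling the PFKL value was -0.01, a change of sign in a setting where the median of all tested probes was -0.09. PFKP had -0.02 ± 0.16 (SE) at ILMN_1805737, whose signals were 4369 and 3692 with the mimic and 4629 and 4383 with the NC oligo, and its groups overlapped. The second PFKL probe, ILMN_2287253, had 91.2 and 95 with the mimic and 91.7 and 96.9 with the NC oligo and was detected on 0 arrays. The second PFKP probe, ILMN_1851760, had 101 and 97.1 with the mimic and 99.6 and 95.5 with the NC oligo and was detected on mimic array 1 alone.

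ALDOA and ALDOC are aldolases, which split the sugar into triose phosphates. ALDOA had 2 bright probes that read alike. ILMN_1736700 had signals of 6018 and 5599.6 with the mimic and 6015 and 5763 with the NC oligo and a log2 fold change of 0.09 ± 0.15 (SE). ILMN_1741148 had 7606 and 6441 with the mimic and 7105 and 7189.9 with the NC oligo and 0.09 ± 0.16 (SE). Both of the other ALDOA probes lay at background, ILMN_1681374 with 87.6 and 89.2 with the mimic and 96.5 and 99.6 with the NC oligo. ILMN_2251253 had 98.9 and 98.2 with the mimic and 92.5 and 97.9 with the NC oligo and was detected on mimic array 1 alone. ALDOC had -0.08 ± 0.15 (SE). TPI1, triose-phosphate isomerase, had signals of 8102 and 7709 with the mimic and 9088 and 7782 with the NC oligo at ILMN_1707627. At ILMN_2181191 they were 4572 and 3159 with the mimic and 4964 and 3583 with the NC oligo, with array 1 above array 2 in both groups. The TPI1 log2 fold changes were 0.0048 ± 0.15 (SE) and -0.01 ± 0.23 (SE).

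PFKFB3 and PFKFB4 make or break down the sugar phosphate that activates phosphofructokinase, and PFKFB3 is the strongly producing form. The dimmer PFKFB3 probe, ILMN_1660847, had signals of 299 and 355 with the mimic and 291 and 283 with the NC oligo. Its normalized log2 signals were 7.99 and 8.15 with the mimic and 7.63 and 7.60 with the NC oligo, with both mimic arrays above both NC oligo arrays. The mean was 8.07 ± 0.11 with the mimic and 7.62 ± 0.02 (SD, n = 2 each) in NC oligo cells. The log2 fold change was 0.45 ± 0.14 (SE; 95% interval 0.12 to 0.78) (unadjusted p = 0.0126, limma adjusted p = 0.895). The brighter probe, ILMN_2186061, had log2 signals of 11.34 and 10.97 with the mimic and 11.11 and 11.08 with the NC oligo, with the mimic arrays on either side of the NC oligo arrays. Its log2 fold change was 0.06 ± 0.17 (SE). PFKFB4 had -0.05 ± 0.14 (SE).

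The pay-off steps of glycolysis, which yield ATP, had 11 probes for 5 genes, all detected on all arrays. PGK1, the first ATP-producing kinase of the pathway, had signals of 3246 and 2806 with the mimic and 4214 and 3125 with the NC oligo at ILMN_1755749. At ILMN_2216852 they were 1695 and 1517 with the mimic and 1888 and 2143 with the NC oligo. The PGK1 log2 fold changes were -0.13 ± 0.18 (SE) and -0.20 ± 0.16 (SE), and after normalization the groups overlapped at both. PGAM1, phosphoglycerate mutase, had both mimic arrays above both NC oligo arrays at its 2 probes. Its log2 signals were 10.08 and 10.22 with the mimic and 9.97 and 10.05 with the NC oligo at ILMN_1661366, and 11.87 and 11.73 with the mimic and 11.71 and 11.52 with the NC oligo at ILMN_2112417. The log2 fold changes were 0.13 ± 0.14 (SE) and 0.19 ± 0.15 (SE), with limma adjusted p = 0.966 and 0.943. They were 0.02 and 0.08 with median scaling, where the median of all tested probes was -0.09. The first was 0.07 when mimic array 2 was left out, and the second 0.09 when NC oligo array 2 was left out.

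GAPDH, often used as a reference gene, had 3 bright probes on both sides of 0. Signals were 11730.4 and 10283 with the mimic and 11269 and 11118 with the NC oligo at ILMN_1343295, and 7607 and 7145 with the mimic and 8672 and 8583 with the NC oligo at ILMN_1802252. They were 12256 and 12154 with the mimic and 14016 and 11765 with the NC oligo at ILMN_2038778. The log2 fold changes were 0.04, -0.09 and -0.0011 in that order. At ILMN_1802252 both mimic arrays lay below the NC oligo arrays, and at the other probes the groups overlapped. ENO1, an enolase, had 0.04 ± 0.15 (SE). PKM, pyruvate kinase, had 3 probes with nearly equal log2 fold changes of -0.11, -0.10 and -0.11. On each of the PKM probes mimic array 2 was the lowest of the 4 arrays.

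LDHA turns pyruvate into lactate, and its 3 probes did not read alike. ILMN_1807106 had signals of 12119.6 and 12988 with the mimic and 13759.9 and 14125 with the NC oligo. ILMN_3249748 had 13344 and 14244 with the mimic and 14748 and 14479 with the NC oligo. The dim probe ILMN_3251145 had 151 and 181 with the mimic and 250.2 and 211 with the NC oligo. All were detected on every array with a detection p listed as 0. In normalized log2 signal the dim probe had 6.43 and 6.73 with the mimic and 7.33 and 7.0 with the NC oligo, with both mimic arrays below both NC oligo arrays. Its mean was 6.58 ± 0.21 with the mimic and 7.17 ± 0.23 (SD, n = 2 each) in NC oligo cells, and its log2 fold change was -0.59 ± 0.18 (SE; 95% interval -0.99 to -0.19) (unadjusted p = 0.00901, limma adjusted p = 0.895). The bright probes had 13.60 and 13.70 with the mimic and 13.68 and 13.77 with the NC oligo at ILMN_1807106. At ILMN_3249748 they had 13.73 and 13.83 with the mimic and 13.79 and 13.83 with the NC oligo. Their groups overlapped, and their log2 fold changes were -0.07 ± 0.14 (SE) and -0.03 ± 0.14 (SE), the second turning to 0.03 with cyclic loess, 0.04 on the authors' scaled signals and 0.02 without piR-598 mimic replicate 1. The brightest probe of each array read 14508 to 15211, close to the bright LDHA signals of 12119.6 to 14748.3. ENO1, with signals of 13376 and 12530.5 with the mimic and 14509.6 and 12096 with the NC oligo, and the GAPDH probe ILMN_2038778 reached the same level. Whether such bright probes still follow the RNA amount was not tested. For the dim probe the value was -0.36 without background correction and -0.36 on the scaled signals of the authors. Leaving out NC oligo array 2 gave -0.75, and leaving out NC oligo array 1 gave -0.42.

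PDK1, which diverts pyruvate away from the mitochondria, was not above background on the mimic arrays. It entered the test only through its detection on the NC oligo arrays, so no direction is read from it. It is 1 of the 9 member probes counted as below on both mimic arrays. Its measured normalized log2 means were 4.56 ± 0.04 with the mimic and 4.71 ± 0.05 (SD, n = 2 each) in NC oligo cells.

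**Figure D3:**
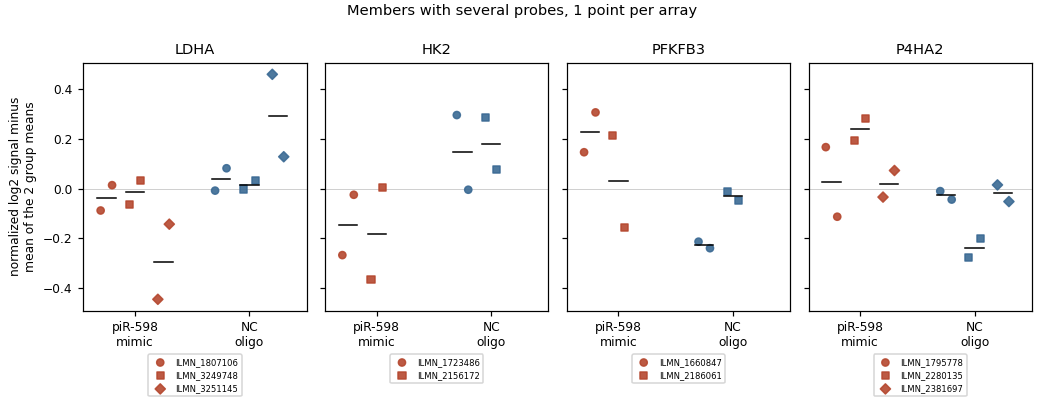
Normalized log2 signal of each probe of LDHA, HK2, PFKFB3 and P4HA2, minus the mean of its 2 group means, with 1 point per array, piR-598 mimic to the left of NC oligo and a bar at each group mean. The HK2 probes move together, while in LDHA, PFKFB3 and P4HA2 the group means of 1 probe lie further apart than those of the others.

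Several probes of a gene can be compared, although they were not placed on transcripts and may read different ones. Of the members, 14 had 2 or more tested probes. Their log2 fold changes shared a sign in 9 of the 14 and differed in sign in 5 (VEGFA, HK1, ANGPTL4, GAPDH and TPI1). In all 14 the 95% intervals of the probes had values in common, as they did in 99.1% of all genes with several tested probes. The median span between the highest and lowest probe of a member was 0.10, against 0.17 over 2978 genes with several tested probes. Among those genes 50.9% had probes of the same sign. The wide spans were those of LDHA at 0.56, P4HA2 at 0.44 and PFKFB3 at 0.39, and the other probes of these 3 genes had log2 fold changes between -0.07 and 0.06. Taken per array, the standout probe minus the mean of the others differed between groups by 0.43 for P4HA2 and 0.39 for PFKFB3. An exact permutation test over the 4 arrays gave p = 0.333 for both (two-sided), the smallest p that 2 arrays against 2 allow. The same permutation test gave p = 0.667 for PGAM1 and for BNIP3L, with overlapping groups. The probes were chosen for their values, so these differences are a description and the p-values lend them no support. For LDHA no such difference is given, since its other probes lie near the top of the signal range.

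The 2 mimic arrays differed from each other about as much as arrays of different groups did, and the 2 NC oligo arrays differed less. The SD of the log2 difference over the 52 member probes was 0.29 between the mimic arrays and 0.20 between the NC oligo arrays. Across groups it ran from 0.21 to 0.30. Enzymes of the glycolytic chain from hexokinase to pyruvate kinase had 24 tested probes, and 20 of them (83.3%) were higher on mimic array 1 than on mimic array 2, with a median difference of 0.16. Over all tested probes that share was 53.9%, with a median of 0.03. PKM, TPI1 and GPI were examples. The adjoining members did not share this lean. On mimic array 1, 0 of 4 probes of LDHA and PDK1 and 0 of 2 of the glucose transporters were higher. For PFKFB3 and PFKFB4 it was 1 of 3, and over all 52 member probes the share was 57.7%. The PDK1 probe was detected on neither mimic array, and the bright LDHA probes lay near the top of the signal range. The order of the mimic arrays is therefore not read from those probes. The hypoxia genes had no common lean. Of the other hypoxia response genes 2 of 9 probes were higher on mimic array 1, against 4 of 6 for the ligands and 3 of 4 for the oxygen sensors and feedback genes. Between the NC oligo arrays 15 of the 24 glycolytic probes (62.5%) were higher on array 1, against 50.6% of all tested probes. There the ligands had 5 of 6, the oxygen sensors and feedback genes 4 of 4 and the other hypoxia response genes 5 of 9. The lean of the glycolytic probes was noticed in the values and carries no test.

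Genes around the pathway were read from 4 further lists of other pathway members. The oxygen-sensing machinery had all 17 genes detected, and of 26 tested probes 0 were called, 0 higher and 0 lower, with a median log2 fold change of -0.06. HIF1A, the oxygen-regulated subunit of HIF-1, had 3 probes at 0.26 ± 0.24 (SE), 0.21 ± 0.26 (SE) and -0.14 ± 0.23 (SE). EPAS1, which encodes HIF-2 alpha, had 0.11 ± 0.14 (SE) and ARNT, their shared partner, detected on 1 of 2 arrays in each group, -0.09 ± 0.16 (SE). VHL, the ubiquitin ligase subunit that recognises hydroxylated HIF, had 0.25 ± 0.14 (SE) and -0.11 ± 0.16 (SE) at its 2 tested probes. The smallest unadjusted p-values in this list were those of SIAH1, a ubiquitin ligase that acts on HIF hydroxylases, with -0.39 ± 0.14 (SE), of ELOC, a VHL partner, with -0.38 ± 0.17 (SE), and of the coactivator CREBBP, with -0.28 ± 0.15 (SE). The other tested probes of these genes had -0.29 and -0.03 for SIAH1, -0.23 for ELOC and 0.19 for CREBBP.

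Genes for the fate of pyruvate and lactate had 14 of 18 genes tested, with 0 of 18 probes called in either direction and a median of 0.02. DLAT, the acetyltransferase core of pyruvate dehydrogenase, had log2 signals of 5.97 and 5.87 with the mimic and 6.60 and 6.42 with the NC oligo. Both mimic arrays were lower, with a log2 fold change of -0.59 ± 0.15 (SE; 95% interval -0.92 to -0.25) (unadjusted p = 0.00337, limma adjusted p = 0.895). PC, pyruvate carboxylase, had -0.31 ± 0.15 (SE) at a probe near background, detected on 1 of 2 mimic arrays and 2 of 2 NC oligo arrays. Its signals were 97.9 and 96.9 with the mimic and 109.5 and 108.8 with the NC oligo. The other PC probes were detected on 0 arrays. PDHA1, of the same complex as DLAT, had 0.29 ± 0.15 (SE). The other glycolysis genes had 12 of 25 genes tested, with 0 of 12 probes called and a median of 0.03. Smallest in p were LDHAL6A, PGM2 with -0.23 ± 0.16 (SE) and LDHB with 0.13 ± 0.15 (SE). LDHAL6A was detected on the NC oligo arrays alone and entered the test through them, so no direction is read from it. Further hypoxia targets had 34 of 42 genes tested, with 0 of 44 probes called and a median of 0.02. PLIN2, a lipid droplet coat protein, had the smallest p, but the probe entered the test only through its detection on the mimic arrays, so no direction is read from it. TXNIP, an inhibitor of glucose uptake, had -0.30 ± 0.14 (SE), and the vasoconstrictor gene EDN1 had 0.23 ± 0.14 (SE). Over all 4 lists the limma adjusted p was at least 0.895. An unadjusted p under 0.05 was found for 1 probe of the pyruvate list, 2 of the oxygen-sensing list, 1 of the further hypoxia targets and 0 of the other glycolysis genes, where 5.46% of all tested probes had one. The probe among the further hypoxia targets was that of PLIN2.

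**Figure D4:**
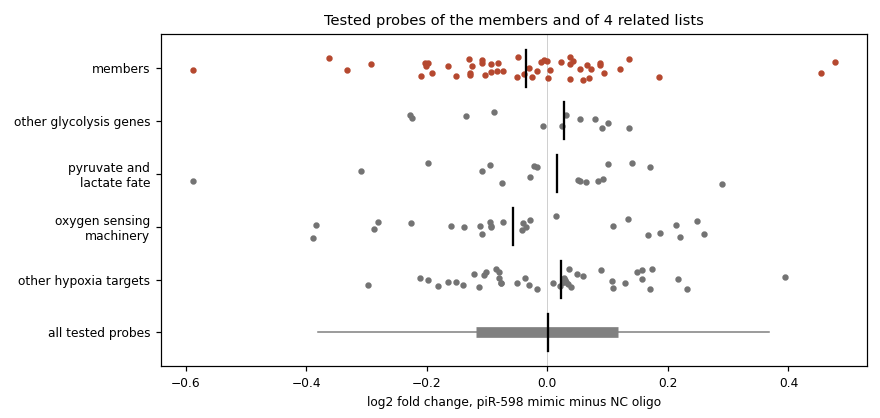
Log2 fold change, piR-598 mimic minus NC oligo, of the tested probes of the members and of 4 related lists, 1 point per probe with a black bar at the median. The lowest row shows all 20188 tested probes, with a thick line over the middle range from the 25 to the 75 percentile and a thin line over the central 95% of probes (-0.38 to 0.37). The medians of all lists lie between -0.06 and 0.03.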

How the data were processed

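The members were listed by gene name, and members, lists and rules were chosen with earlier results of these data known. Probe signals were measured on Illumina bead arrays of 2 piR-598 mimic and 2 NC oligo samples, grouped by their titles. The authors deposited linear signal intensities with a detection p-value for each probe, made with GenomeStudio 2011.1 per the submitters' processing notes. The detection p moved in steps of 1 in 770. A second table of scaled intensities deposited by the authors was the first times a constant per array (1.07 and 1.02 for the mimic, 0.951 and 0.97 for the NC oligo). It has linear, uncentred signals with medians of 99.8, 97.8, 94.6 and 96.5, and served as an alternative. Background subtraction before deposit, scanner and slide are not given in the sources used here.

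Signals were corrected by normexp with the detection p, given an offset of 16, quantile normalized and taken to log2 with neqc in limma 3.58.1 under R 4.3.3. The model (lmFit, eBayes) was fitted to 20188 of 47318 probes, those detected (p under 0.05) on 2 or more arrays. P-values were two-sided and adjusted by Benjamini-Hochberg over all tested probes, with calls under 0.05. Median scaling, other background settings, filters and left-out arrays were alternatives. The steps were tested on simulated data.

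Genes were named from the platform annotation, where 30112 probes had 1 symbol, 8 several and 17198 none, and 30073 matched RefSeq (GRCh38.p14) by gene identifier. Array values were printed for every LDHA probe, the 6 member probes of smallest p per direction, members whose probes differed in detection or sign, and VEGFA, SLC2A1, HK2, PDK1 and PGK1. Of each further list the 3 genes of smallest p were named.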

Additional observations from a re-analysis of the deposited data

How the results depend on the processing

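Of the 13 alternative settings, 0 called any of the member probes. Over all tested probes the settings that kept the 4 arrays also called 0, and leaving out an array called 0 to 3, 3 without NC oligo array 2 and 1 without mimic array 2. The number of member probes with an unadjusted p under 0.05, 3 as reported, was 5 with median scaling, 6 on the authors' scaled signals and 0 to 5 when an array was left out, 0 when NC oligo array 1 was absent and 5 when mimic array 2 was absent. It stayed between 3 and 4 under the other settings. Among all tested probes the share with such a p was 5.46% as reported. That share rose too, to 7.39% after median scaling. For the scaled table of the authors it was 6.44%. The median log2 fold change of the member probes was -0.12 with median scaling, where the median of all tested probes was -0.09, so relative to all probes it was -0.04 there. It ran from -0.09 to 0.02 when an array was left out. Among the 14 probes of smallest p or of LDHA, the PFKL probe ILMN_1713037 turned to -0.013 with median scaling. The LDHA probe ILMN_3249748 turned to 0.028 after cyclic loess normalization and to 0.035 on the scaled table of the authors, and ran from -0.079 to 0.017 when an array was left out, the last value being without mimic array 1. Of all 52 member probes, 18 changed sign under at least 1 of the 5 other background or scaling settings, and 31 when some array was left out. Sign changes were not counted over all tested probes, and their cause was not tested. Members with a detected probe numbered 31 to 33 under the 3 other detection rules. With the replicate number as a block, 0 member probes were called and the median was again -0.04. In that setting 3 member probes had an unadjusted p under 0.05, as did 7.12% of all tested probes. Over all probes the deviations of same-numbered arrays from their group means correlated at 0.147, and with 2 pairs the numbers are not shown to pair the samples.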
